A study of Mus musculus with 8 samples.

Results

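Hi-C contacts between the centromere-proximal ends of 14 mouse autosomes were examined in mouse embryonic stem cells (mESCs). The regions are the 14 windows from 3 to 13 Mb on chromosomes 1 to 11, 13, 14 and 17 in the mm9 build, that is, positions 3000001 to 13000000 of each chromosome. They are defined by their position, and a contact was counted when a read pair joined windows on 2 different chromosomes. Of the 280 bins of 500 kb in these windows, 270 had enough coverage to be kept, out of 5093 bins kept on the autosomes and chromosome X. The 10 bins left out lie on chromosome 7 (5 bins between 7.5 and 10.5 Mb) and chromosome 14 (5 bins between 3 and 7 Mb). The bins kept form 33825 pairs of bins on different chromosomes, 0.489% of the 6910448 such pairs among all bins of the 14 chromosomes.

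Mouse chromosomes carry their centromere at one end, so the lowest coordinates of each chromosome lie next to the pericentromeric major satellite DNA. In interphase nuclei the satellite arrays of several chromosomes gather into chromocenters, dense foci of constitutive heterochromatin marked by H3K9me3 and HP1. The arrays themselves are missing from the mm9 assembly, which leaves the first 3 Mb of each chromosome empty, so the windows measure the unique DNA beside the arrays. Chromosomes 12, 15, 16, 18 and 19 carry the ribosomal RNA gene clusters (nucleolar organizer regions, NORs) next to their centromeres, and their windows were kept apart as a comparison.

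Both groups were mESCs electroporated with a morpholino antisense oligo (AMO), at 5 nmol per 100 μl. The L1 AMO targets RNA of LINE-1 (L1), an abundant retrotransposon whose RNA is bound to chromatin, and the scramble (SCR) AMO is the control, so the oligo delivery and the sort are shared by both groups. Cells that had taken up the oligo were sorted at 12 h and harvested at 36 h. The 2 L1 AMO and 2 SCR AMO samples came from 2 independent transfection experiments, and the bulk maps average over all cells of a sample. The 2 oligos are shown because they are the only designed difference between the groups. Each has 25 bases, written 5′ to 3′.
L1 AMO: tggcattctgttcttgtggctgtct
SCR AMO: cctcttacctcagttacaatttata

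The 4 maps held 22252054 to 112381720 contacts. Between-chromosome contacts were 22.2% and 22.7% of the total with SCR AMO and 15.7% and 14.2% with L1 AMO, so the L1 AMO maps held fewer contacts of the kind described here throughout the genome. The totals of both SCR AMO maps depart from the valid-pair totals that the study lists, while those of the L1 AMO maps are close to them. An effect of the oligo and a difference in how the maps were made cannot be told apart. Whole-chromosome coverage also moved with the group on a pair of chromosomes. Relative to the median autosome, coverage per bin on chromosome 1 was 0.983 and 0.989 with SCR AMO and 1.38 and 1.41 with L1 AMO. On chromosome 14 it was 0.873 and 0.877 with SCR AMO and 1.18 and 1.21 with L1 AMO. The other 17 autosomes had L1 AMO over SCR AMO ratios from 0.935 to 1.04. Several results below are therefore also given without chromosomes 1 and 14.

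Contacts between windows were more frequent than contacts between chromosomes in general in every sample. After genome-wide balancing, which scales each bin to the same total contact frequency, the mean frequency between windows was 1.79-fold and 1.73-fold the mean over all bin pairs of the 14 chromosomes with SCR AMO. It was 1.86-fold and 1.87-fold with L1 AMO. The ratio is called the enrichment below. Without balancing it was 1.60 and 1.57 with SCR AMO and 1.68 and 1.71 with L1 AMO. When only contacts between chromosomes were balanced, it was 1.57 and 1.52 with SCR AMO and 1.55 and 1.52 with L1 AMO. Over 33 settings without a scaling to depth, no sample had an enrichment below 1.504. These values rest on 116511 and 23148 raw contacts between windows with SCR AMO and 45751 and 33584 with L1 AMO. A pair of window bins held a mean of 3.44 and 0.684 counts with SCR AMO and 1.35 and 0.993 with L1 AMO, so single bin pairs are mostly too thin to be read alone.

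The enrichment was lower farther from the centromere. Bands of the chromosomes were compared by their contacts with the windows of other chromosomes, as means of the 4 samples. The inner part of the windows (3 to 8 Mb) had an enrichment of 2.06 with the windows of other chromosomes, and the outer part (8 to 13 Mb) one of 1.57. Outside the windows it was 1.53 at 13 to 23 Mb, 1.33 at 23 to 33 Mb and 1.22 at 33 to 43 Mb. It was close to the mean of all pairs at 53 to 63 Mb, at 1.02, and lay below it at 73 to 83 Mb, at 0.893. The last 10 Mb of each chromosome, next to the telomere far from the centromere, contacted the windows at 0.895 and 0.907 of the mean with SCR AMO and 0.889 and 0.905 with L1 AMO. These distal ends contacted one another, in contrast, at 1.93 and 1.81 with SCR AMO and 1.62 and 1.57 with L1 AMO. Each end of the chromosomes was thus enriched for contacts with its own kind, and contacts between opposite ends were below the mean in all 4 samples.

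**Figure D1:**
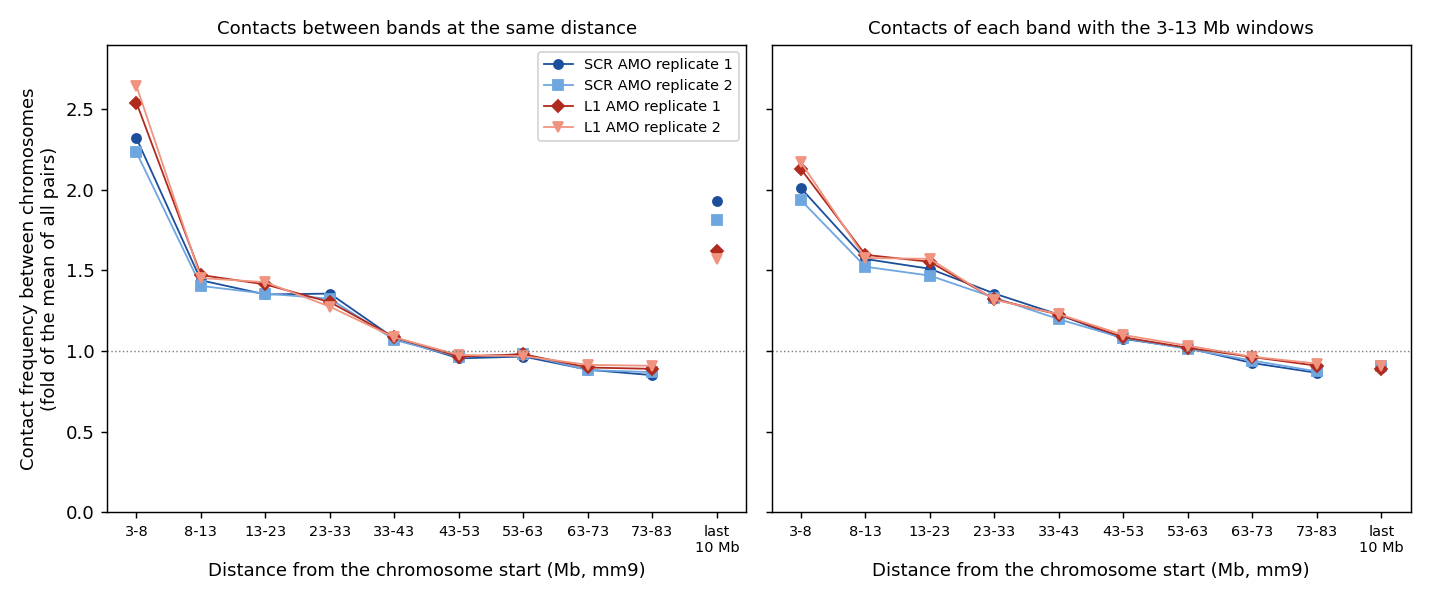
Contact frequency between the 14 chromosomes by distance from the chromosome start, as fold of the mean of all bin pairs on different chromosomes. The left panel plots each band with the same band of other chromosomes and the right panel each band with the 3 to 13 Mb windows, with 1 point per sample and a dotted line at the mean. Values fall from 2.06 in the first band of the right panel to 0.893 at 73 to 83 Mb, and the last 10 Mb stand high in the left panel and below 1 in the right panel.

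The windows of the NOR chromosomes showed a higher enrichment with each other, relative to the same mean over the 14 chromosomes. The mean over pairs of the NOR chromosomes themselves was not used as a reference. The enrichment was 2.44 and 2.18 with SCR AMO and 2.47 and 2.40 with L1 AMO, over 100 bins and 10 chromosome pairs. All 4 values lay above those of the 14 windows. The order depended on the settings. With contacts between chromosomes alone balanced, the NOR windows stood at 1.33, 1.27, 1.40 and 1.39 in the samples in the same order, below the 14 windows in each. With a coverage limit of 0.5 the 14 windows minus the NOR windows came to -0.28 and -0.18 on the log2 scale with SCR AMO and -0.06 and 0.07 with L1 AMO, so 1 of the 4 samples had the opposite order. After genome-wide balancing, the 14 windows contacted the NOR windows at 1.80 and 1.72 with SCR AMO and 1.71 and 1.67 with L1 AMO. This was close to the level among the 14 windows themselves. With contacts between chromosomes alone balanced, it was 1.28 and 1.26 with SCR AMO and 1.26 and 1.25 with L1 AMO. The 14 windows among themselves then had 1.57 and 1.52 with SCR AMO and 1.55 and 1.52 with L1 AMO.

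Inside the windows the gradient was steepest at the first bin. Bins at 3 to 3.5 Mb, the first sequenced DNA beside the satellite arrays, had an enrichment with the windows of other chromosomes of 4.33 as the mean of the 4 samples, over the 13 chromosomes where that bin was kept. The next bins, at 3.5 to 4 Mb, had 2.11, and bins beyond 11 Mb had 1.504 to 1.54. Over the 270 bins, enrichment and distance from the chromosome start had a Spearman's rho of -0.61. This is a description, since bins of a chromosome share their neighbors and all bins share the 4 libraries. All 270 bins had a mean above 1, and 268 of them were above 1 in each of the 4 samples.

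**Figure D2:**
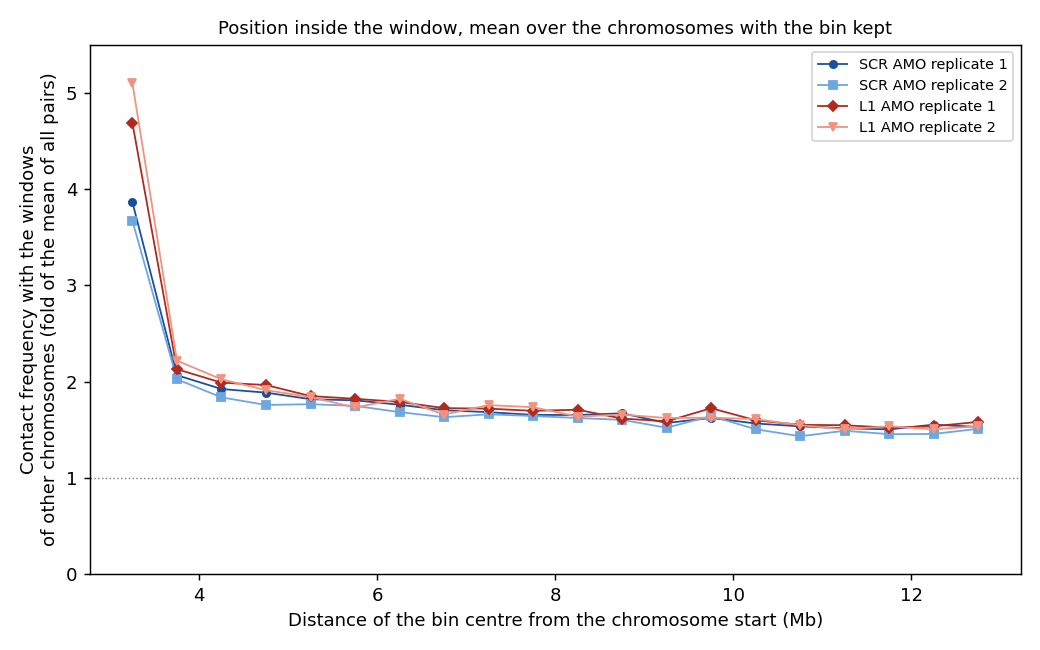
Enrichment of each 500-kb position with the windows of other chromosomes, averaged over the chromosomes in which the bin was kept, against the distance of the bin from the chromosome start. Points are samples and the dotted line is the mean of all bin pairs. The first position averages 4.33, and the L1 AMO samples lie above the SCR AMO samples there.

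The first bins contacted one another far more than the other window bins did. Among the 13 first bins, the enrichment after genome-wide balancing was 23.3 and 24.0 with SCR AMO and 33.3 and 38.8 with L1 AMO. First bins with the other window bins had 2.88 and 2.65 with SCR AMO and 3.25 and 3.40 with L1 AMO. The other 257 window bins with each other had 1.62 and 1.58 with SCR AMO and 1.64 and 1.62 with L1 AMO. The windows were thus enriched without their first bins too. The raw counts behind the first group were 3866 and 803 with SCR AMO and 1846 and 1503 with L1 AMO. They were uneven over the pairs of first bins. In SCR AMO replicate 1, chromosomes 4 and 8 held 485 of the 3866 and chromosomes 11 and 17 held 493. Single first bins had an enrichment with the windows of other chromosomes from 1.76 to 10.0, with a median of 3.65.

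The first bins also stood apart in other readouts. Contacts with other chromosomes made up 23.6% to 57.6% of their contacts, with a median of 31.2%, against a median of 22.5% over all window bins. Their coverage was 0.654 to 2.703 of their chromosome's median, with a median of 0.837. The highest bin of all was the first bin of chromosome 11, at 8.33 and 7.67 with SCR AMO and 11.5 and 12.6 with L1 AMO. It had the highest coverage of the 270 bins, at 2.703 of its chromosome's median, and the highest share of contacts with other chromosomes, at 57.6%. The first bin of chromosome 4 followed with a mean of 9.94 and the first bin of chromosome 6 with 6.24, at coverages of 0.654 and 0.719. The first bin of chromosome 8 had 5.03. The lowest bin was at 11.5 to 12 Mb on chromosome 5, with a mean of 1.13 and a coverage of 0.143 of its chromosome's median. The part of coverage in these values was not tested.

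Each of the 14 windows was enriched in all 4 samples, and the levels differed between chromosomes. As means of the 4 samples, the windows of chromosome 11 (2.17) and chromosome 8 (2.16) stood highest, followed by chromosomes 7 (2.02) and 4 (1.98). On chromosome 11 the values were 2.20 and 2.11 with SCR AMO and 2.19 and 2.19 with L1 AMO, and on chromosome 8 they were 2.08 and 2.12 with SCR AMO and 2.20 and 2.25 with L1 AMO. These windows overlapped each other in level. Chromosomes 6, 1, 17, 14, 13, 9 and 10 followed between 1.82 and 1.73, where neighbors in the order did not differ beyond the spread of the samples. Within this range the order differed between the groups: chromosomes 1 and 14 had means of 1.66 and 1.66 with SCR AMO, the lowest of the 7, and 1.95 and 1.91 with L1 AMO, the highest of the 7. The windows of chromosomes 2 (1.62), 5 (1.53) and 3 (1.51) were lowest. On chromosome 3 the values were 1.47 and 1.45 with SCR AMO and 1.53 and 1.59 with L1 AMO, below each sample's value on chromosomes 11, 8, 7 and 4. The order changed when the first bins were left out. Chromosome 8 then had 1.83, chromosome 7 had 1.80, chromosome 14 had 1.75, chromosome 1 had 1.74 and chromosome 11 had 1.73, and chromosome 4 had 1.51. Over the 14 windows the level had a Pearson's r of -0.25 with chromosome length and 0.28 with the share of active-compartment bins, as a description over chromosomes that share the same 4 libraries.

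**Figure D3:**
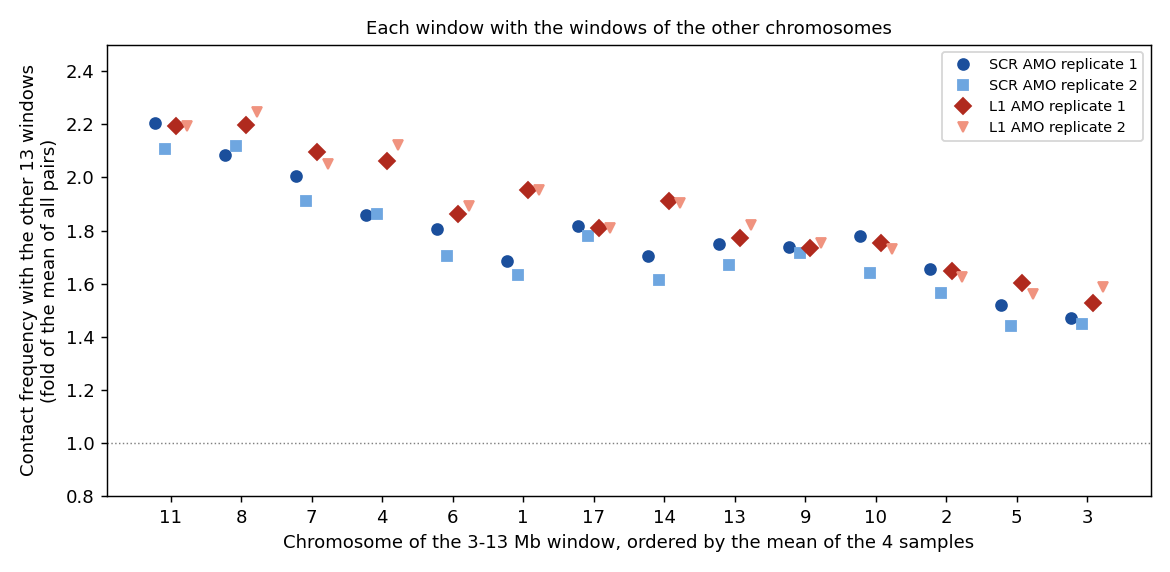
Enrichment of each chromosome's 3 to 13 Mb window with the windows of the other 13 chromosomes, with 1 point per sample, chromosomes ordered by the mean of the 4 samples and a dotted line at the mean of all bin pairs. All points lie above 1, from chromosome 11 (mean 2.17) to chromosome 3 (mean 1.51), and on chromosomes 1 and 14 the L1 AMO points lie well above the SCR AMO points.

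All 91 pairs of windows were enriched in each of the 4 samples. Their means ran from 1.37 to 3.65 with a median of 1.70. The highest pair was that of chromosomes 4 and 8, with 3.13 and 3.30 with SCR AMO and 3.81 and 4.37 with L1 AMO. Chromosomes 8 and 11 followed with 2.75 and 2.93 with SCR AMO and 3.11 and 3.13 with L1 AMO. Chromosomes 4 and 6 came next, with 2.58 and 2.49 with SCR AMO and 3.10 and 3.41 with L1 AMO. All 3 pairs rested in large part on their first bins. Without these, the means were 1.61 for chromosomes 4 and 8, 2.08 for chromosomes 8 and 11 and 1.35 for chromosomes 4 and 6. The pair of first bins of chromosomes 4 and 8 alone held 485 and 134 counts with SCR AMO and 268 and 231 with L1 AMO. The first bins of chromosomes 11 and 17 held 493 and 105 counts with SCR AMO and 231 and 170 with L1 AMO, and those of chromosomes 8 and 11 held 399 and 86 with SCR AMO and 237 and 197 with L1 AMO. These single bin pairs stood far above the mean count of a window bin pair in every sample.

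The lowest pairs joined windows of chromosomes 3 and 5, with a mean of 1.37, chromosomes 2 and 5, with 1.39, and chromosomes 3 and 6, with 1.39. For chromosomes 3 and 5 the samples had 1.33 and 1.42 with SCR AMO and 1.41 and 1.33 with L1 AMO, so the groups overlapped. Without first bins the 91 pairs ran from 1.32 to 2.34 with a median of 1.60, and all of them stayed above 1. The order of the pairs was alike within the groups. Across the 91 pairs, Pearson's r was 0.93 for the SCR AMO pair of samples and 0.95 for the L1 AMO pair, and 0.85 to 0.89 between samples of different groups. These values describe pairs that share windows with each other, and they carry no p.

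**Figure D4:**
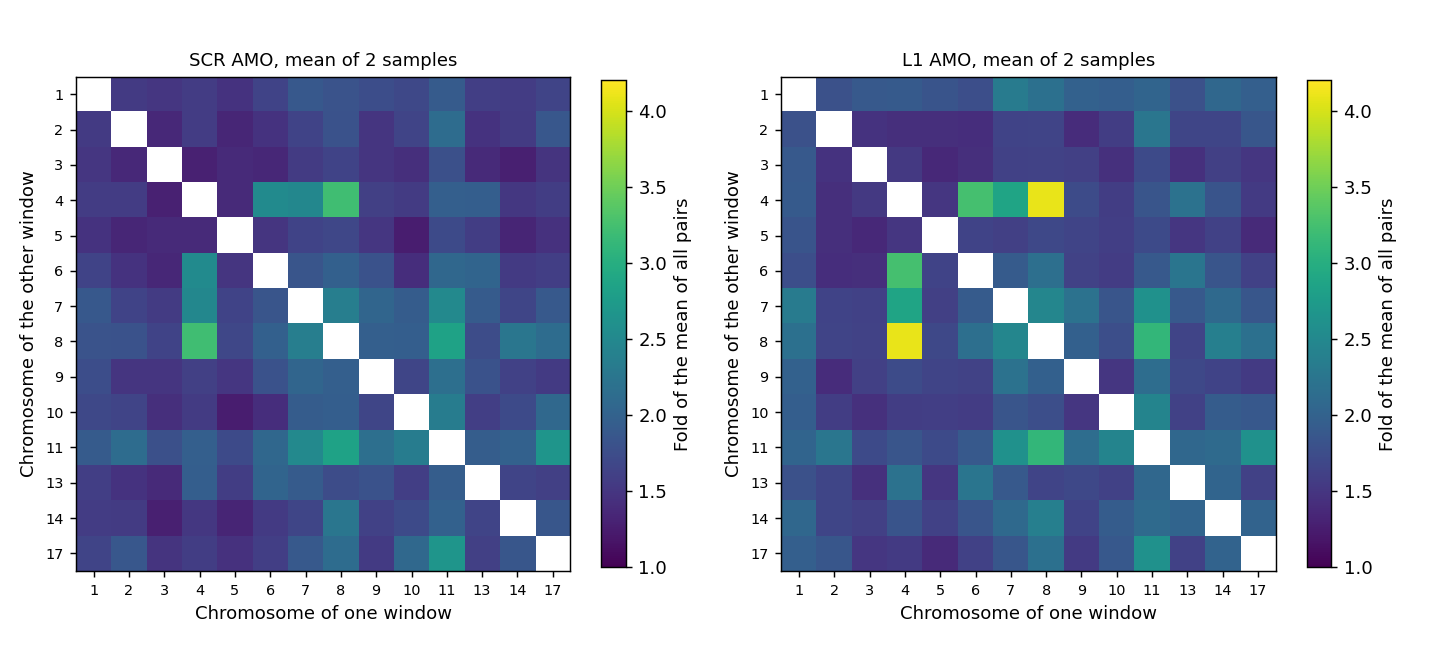
Enrichment of each of the 91 pairs of windows, as the mean of the 2 SCR AMO samples (left) and of the 2 L1 AMO samples (right), with the color giving the fold of the mean of all bin pairs. The pair of chromosomes 4 and 8 is the brightest in both groups, and the rows of chromosomes 1 and 14 are brighter in the L1 AMO panel.

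The enrichment was present for every combination of compartments. Eigenvector 1, which separates the active (A) from the inactive (B) compartment, put 84 of the 270 window bins in A. Pairs of A bins in windows had an enrichment of 2.57 and 2.48 with SCR AMO and 2.54 and 2.56 with L1 AMO. Pairs of B bins had 1.72 and 1.67 with SCR AMO and 1.82 and 1.83 with L1 AMO. Mixed pairs, with 1 bin of each kind, had 1.69 and 1.63 with SCR AMO and 1.75 and 1.77 with L1 AMO. Set against all pairs of bins of the same kind on the 14 chromosomes, as means of the 4 samples, the windows were 1.69-fold higher for A with A, 1.85-fold for B with B and 2.09-fold for A with B. For B with B this ratio was 1.93 and 1.83 with SCR AMO and 1.86 and 1.79 with L1 AMO, with overlap. All B pairs of the 14 chromosomes had 0.893 and 0.913 with SCR AMO and 0.980 and 1.02 with L1 AMO. The ratio for A with A was 1.60 and 1.63 with SCR AMO and 1.71 and 1.83 with L1 AMO. That for A with B was 2.09 and 1.95 with SCR AMO and 2.16 and 2.15 with L1 AMO, both without overlap. The window pairs as a whole were also set against all pairs of the same compartment ranks on the 14 chromosomes, windows included. The enrichment was then 1.83 and 1.77 with SCR AMO and 1.86 and 1.85 with L1 AMO.

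The comparison of L1 AMO with SCR AMO asks whether contacts at the centromere-proximal ends moved when L1 RNA was targeted. As a share of all contacts, those between windows were fewer with L1 AMO. They numbered 1037 and 1040 per 1000000 contacts of the sample with SCR AMO and 788 and 726 with L1 AMO, a ratio of the means of 0.729. The groups did not overlap. Contacts between chromosomes made up 27.4% and 28.4% of the contacts of window bins with SCR AMO and 20.4% and 18.9% with L1 AMO, a difference of -8.25 percentage points. Over all bins of the 14 chromosomes these shares were 25.5% and 26.5% with SCR AMO and 18.5% and 16.9% with L1 AMO, so the values were lower with L1 AMO over the whole of these chromosomes too.

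Relative to other contacts between chromosomes, the windows were slightly higher with L1 AMO. Their enrichment averaged 1.76 ± 0.0433 (SD, n = 2) with SCR AMO and 1.87 ± 0.00752 (SD, n = 2) with L1 AMO, a difference of 6.13%, with an exact two-sided permutation p of 0.333. That is the smallest p that 2 samples against 2 allow, so no comparison of sample values here can reach 0.05. Both values with L1 AMO lay above both with SCR AMO, but the values overlapped when only contacts between chromosomes were balanced (log2 difference -0.01 against 0.09) and when windows started at 4 Mb (0.03). Without chromosomes 1 and 14 the enrichment was 1.77 and 1.72 with SCR AMO and 1.88 and 1.90 with L1 AMO, and with the first bins left out as well it was 1.60 and 1.57 with SCR AMO and 1.64 and 1.63 with L1 AMO.

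The difference was concentrated toward the first bins. The inner part of the windows (3 to 8 Mb) had an enrichment with itself of 2.32 and 2.23 with SCR AMO and 2.54 and 2.65 with L1 AMO, a difference of 13.9%. The outer part (8 to 13 Mb) had 1.44 and 1.40 with SCR AMO and 1.47 and 1.45 with L1 AMO, a difference of 2.88%. The log2 difference between inner and outer part was higher with L1 AMO by 0.15, with no overlap of the groups (exact permutation p = 0.333). It was 0.04 without balancing, 0.07 with contacts between chromosomes alone balanced and 0.03 for windows from 3.5 Mb, without overlap in each. Among first bins alone, the enrichment given above was 52.3% higher with L1 AMO, and among the other window bins it was 1.93% higher, with the groups overlapping. Both values rest on genome-wide balancing and were not computed with contacts between chromosomes alone balanced. Before balancing, a pair of first bins held a mean of 49.6 and 10.3 counts with SCR AMO and 23.7 and 19.3 with L1 AMO. Any bin pair between the 14 chromosomes held 2.15 and 0.436 with SCR AMO and 0.805 and 0.580 with L1 AMO. With the first bins removed before balancing, the windows had 1.66 and 1.61 with SCR AMO and 1.68 and 1.66 with L1 AMO, a log2 difference of 0.03 without overlap. Per 1000000 contacts of the sample, contacts among first bins were 34.4 and 36.1 with SCR AMO and 31.8 and 32.5 with L1 AMO, a change of -8.78%. Those among the other window bins were 802 and 813 with SCR AMO and 605 and 551 with L1 AMO, a change of -28.4%. The groups did not overlap in either measure.

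The opposite ends of the chromosomes differed in the other direction. The enrichment among distal ends averaged 1.87 ± 0.0817 (SD, n = 2) with SCR AMO and 1.60 ± 0.0358 (SD, n = 2) with L1 AMO, a difference of -14.7%. On the log2 scale, proximal minus distal enrichment was -0.11 and -0.07 with SCR AMO and 0.20 and 0.25 with L1 AMO. With SCR AMO the distal ends were thus the more enriched ends, and with L1 AMO the proximal ends were. When only contacts between chromosomes were balanced, the distal ends had 1.37 and 1.35 with SCR AMO and 1.29 and 1.30 with L1 AMO, below the proximal ends in all 4 samples. The difference of 0.32 between the groups had an exact permutation p of 0.333. It kept its direction without overlap in every alternative tried, though those that left out a sample or used replicate numbers were bound to. It was 0.06 when only contacts between chromosomes were balanced, and 0.23 without chromosomes 1 and 14 and the first bins, where the distal ends stayed the more enriched in both groups.

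In the main setting, no difference in response between the 14 windows and the NOR windows could be told from the spread of the samples. Proximal enrichment minus that of NOR windows was -0.45 and -0.34 on the log2 scale with SCR AMO and -0.41 and -0.36 with L1 AMO. The mean difference between the groups was 0.01 (exact permutation p = 1), and its direction depended on the setting. In some other settings, listed further below, the groups did not overlap, with differences in both directions. Contacts of the windows with the rest of the 14 chromosomes were 0.992 and 0.996 of the mean with SCR AMO and 1.01 and 1.03 with L1 AMO, and the groups overlapped when only contacts between chromosomes were balanced.

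By chromosome, 9 of the 14 windows had a higher enrichment in both L1 AMO samples (above the higher SCR AMO sample), none was lower in both, and 5 overlapped. Of 199 blocks of 10 Mb anywhere on the 14 chromosomes, each measured against blocks at the same distance, 30.7% were higher in both L1 AMO samples and 45.7% were lower. Chromosome 1 had 1.69 and 1.63 with SCR AMO and 1.95 and 1.95 with L1 AMO, and chromosome 14 had 1.70 and 1.61 with SCR AMO and 1.91 and 1.90 with L1 AMO. These are the chromosomes whose whole coverage was higher with L1 AMO, and their log2 differences, 0.24 and 0.20, were the largest of the 14. Chromosome 4 followed with 1.86 and 1.86 against 2.06 and 2.12. Without first bins the counts became 5 higher, 2 lower (chromosomes 8 and 11) and 7 overlapping.

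Of the 91 pairs, 42 were higher in both L1 AMO samples, 13 lower and 36 overlapping, where 27.9% of 18713 block pairs on different chromosomes were higher and 28.1% lower. Without first bins 32 pairs were higher and 23 lower. Of the 270 bins, 88 were higher and 43 lower, where 23.8% of 3834 bins measured in the same way were higher and 27.8% lower. Of the 13 first bins, 11 were higher and none was lower. The counts of pairs and bins in this paragraph are not given without chromosomes 1 and 14. These chromosomes enter 25 of the 91 pairs, and their coverage was higher with L1 AMO. All pairs of chromosome 1 but that with chromosome 11 were higher in both L1 AMO samples. So were all pairs of chromosome 14 but those with chromosomes 2, 8 and 9. These pairs weigh heavily in the 42.

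Raw counts of the pairs entered an edgeR quasi-likelihood fit over 18713 pairs of 10-Mb blocks on different chromosomes among the 14, with TMM normalization, so that a change is relative to other contacts between chromosomes. At an adjusted p under 0.05, 25 of the 91 pairs of windows were called and all 25 were higher with L1 AMO, where 46.1% of all block pairs were called, 26.2% as higher and 19.9% as lower. No pair of windows was called lower in this fit, also at an unadjusted p under 0.05 (0 pairs). DESeq2 called 18 pairs higher and 0 lower, where it called 14.6% of all block pairs higher and 5.11% lower. With a replicate block in the edgeR fit, 29 pairs were higher and 3 lower, where 27.6% of all block pairs were higher and 23.1% lower. The median log2 change of the 91 pairs was 0.04, and that of all block pairs was -0.01.

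Of the 25 pairs called, 23 included chromosome 1 or chromosome 14. The largest change was that of the pair of both (log2 change 0.92, edgeR adjusted p = 2.013e-21). It had 551 and 107 counts with SCR AMO and 388 and 272 with L1 AMO. Scaled by TMM, these were 37.2, 35.1, 71.0 and 67.4 per 1000000 contacts between the 14 chromosomes. Chromosome 1 with chromosomes 3, 4, 5 and 7 followed, with log2 changes of 0.66, 0.65, 0.63 and 0.60. The largest edgeR adjusted p of these 4 was 8.267e-07. The pairs called outside chromosomes 1 and 14 were chromosomes 3 and 4 (959 and 201 against 407 and 343 counts, log2 change 0.28, edgeR adjusted p = 0.009835) and chromosomes 5 and 10 (963 and 165 against 382 and 304 counts, log2 change 0.22, edgeR adjusted p = 0.03721).

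With an offset for the totals of each block, which takes up differences in coverage, 4 of the 91 pairs were called, where 3.29% of all block pairs were. Chromosomes 8 and 11 (log2 change 0.28, edgeR adjusted p = 5.473e-10) and chromosomes 4 and 8 (0.17, edgeR adjusted p = 0.01372) were higher. In the fit without first bins, which had no such offset, chromosomes 8 and 11 were called lower (-0.34, edgeR adjusted p = 0.04261). Chromosomes 4 and 8 were not called there (-0.11, edgeR adjusted p = 0.4269). In the fit with the offset, chromosomes 9 and 10 (-0.27, edgeR adjusted p = 0.006336) and chromosomes 9 and 13 (-0.24, edgeR adjusted p = 0.01288) were lower. The pair of chromosomes 1 and 14 had a log2 change of 0.02 with this offset. When chromosomes 1 and 14 were removed from the whole table, 7 of the remaining 66 pairs were called and all 7 were higher, where 13.5% of 12909 block pairs were called, 7.62% as higher and 5.83% as lower. When the first bins were removed, 24 pairs were called higher and 4 lower, where 45.8% of block pairs were called, 26.4% as higher and 19.4% as lower.

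**Figure D5:**
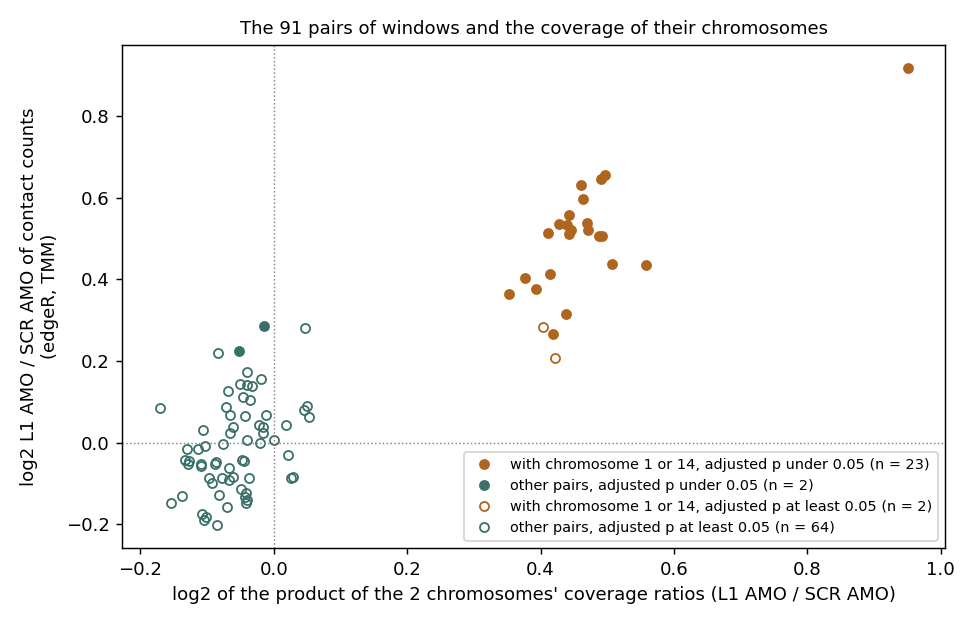
The log2 L1 AMO over SCR AMO change of contact counts of each of the 91 pairs of windows (edgeR with TMM, vertical axis) against the log2 of the product of both chromosomes' whole-coverage ratios (horizontal axis). Filled points have an adjusted p under 0.05. The 25 pairs with chromosome 1 or 14 lie apart on the right, and 23 of them are filled, against 2 of the other 66.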

How the data were processed

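The authors processed paired-end sisHi-C reads with HiC-Pro on mm9 (version 2.7.1b in the submitters' processing notes) and deposited raw counts of contacts for pairs of 500-kb bins. Duplicate removal and mapping options of these matrices are not given in the sources used here. The 2 matrices of each L1 AMO sample were added. Bins were numbered along mm9 chromosomes, and a bin was dropped when any sample covered it below 0.1 of the chromosome's median. Each sample was balanced by iterative correction over all contacts. Levels without balancing and with contacts between chromosomes alone balanced are given too. The windows, lists and tests were chosen with earlier results of these data known.

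Depth was 112381720 and 22252054 contacts for SCR AMO and 58030519 and 46263849 for L1 AMO, and each group had 2 samples. Groups of samples were compared with an exact two-sided permutation test (smallest p 0.333), and a region was called higher or lower where the groups did not overlap. Counts of 10-Mb block pairs with at least 10 counts on average were tested with edgeR 4.0.16 (quasi-likelihood, TMM, Benjamini-Hochberg) in R 4.3.3, with DESeq2 1.42.0 as an alternative. Measures used Python 3.11.15 and numpy 2.4.6, and both steps were tested on simulated data. The simulated maps for genome-wide balancing had no chromosome ends, so they do not check how that balancing acts at the ends. The pairs named are the 3 highest and 3 lowest by mean enrichment, the 5 largest called changes in each direction, and the highest and lowest bin, and others were named after their values were seen. Alternatives were other balancing, windows, references, coverage limits, bin sizes, depths, chromosomes and samples left out, and a replicate block. H3K9me3 ChIP-seq samples were not analysed here, and genes in the windows are not given because no mm9 annotation was used here.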

Additional observations from a re-analysis of the deposited data

How the results depend on the processing

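Differences are L1 AMO minus SCR AMO on the log2 scale unless stated. Of 38 alternatives for the proximal enrichment (0.09), 35 kept its direction without overlap of the groups. It was -0.0099 with contacts between chromosomes alone balanced, 0.026 for windows from 4 to 13 Mb and -0.46 per 1000000 contacts of the sample (chosen after seeing the data, as were the settings without first bins or without chromosomes 1 and 14). Leaving out each sample gave 0.06 to 0.11, and leaving out each chromosome 0.07 to 0.11. Proximal minus distal enrichment kept its direction without overlap in 14 of 14 alternatives, as did the share of contacts between chromosomes of window bins in 8 of 8. For all these measures, leaving out a sample or taking differences within replicate numbers reuses the main values. Where the main groups did not overlap, these alternatives could not come out otherwise, so they are no separate check. Contacts with the rest of the chromosomes (0.04) came to 0.00078 with contacts between chromosomes alone balanced. Inner minus outer enrichment (0.15) came to 0.037 without balancing, 0.073 with contacts between chromosomes alone balanced and 0.027 without first bins, without overlap, and to 0.021, with overlap, without chromosomes 1 and 14 and the first bins.

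Proximal minus NOR enrichment (0.01) was 0.23 without balancing, 0.23 with a coverage limit of 0.5, 0.18 without first bins and 0.12 without these and chromosomes 1 and 14. The groups did not overlap in any of these. It was -0.11 with contacts between chromosomes alone balanced, also without overlap. With overlap, it was -0.0020 with the first L1 AMO matrices alone, -0.020 thinned to the lowest depth and -0.035 without chromosomes 1 and 14. Leaving out each sample gave -0.046 to 0.062. Windows higher in both L1 AMO samples fell from 9 to 5 without first bins. Pairs of windows called by edgeR (25) numbered 4 with the offset for block totals, 54 of 364 with 5-Mb blocks, 7 of 66 without chromosomes 1 and 14, and 9 of 66 without these and the first bins. In these fits 3.29%, 21.8%, 13.5% and 12.7% of all block pairs were called. They numbered 18 (20.2% of all block pairs called) without SCR AMO replicate 1, 23 (41.0%) without SCR AMO replicate 2, 22 (40.5%) without L1 AMO replicate 1, 21 (32.9%) without L1 AMO replicate 2 and 18 (19.7%) by DESeq2.

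The labels do not say that replicate numbers mark a shared transfection, and deviations of same-numbered samples correlated at 0.19. With the replicate block edgeR called 32 pairs, 29 higher and 3 lower, where it called 50.7% of all block pairs. Differences within replicate numbers were 0.06 and 0.12 for the proximal enrichment, 0.31 and 0.32 for proximal minus distal and 0.10 and 0.20 for inner minus outer. Their direction was fixed, since the groups did not overlap in these measures.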

Other observations

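The bins at 13 to 23 Mb, just beyond the windows, had an enrichment with the same band of other chromosomes of 1.35 and 1.36 with SCR AMO and 1.41 and 1.43 with L1 AMO. The band at 23 to 33 Mb had 1.36 and 1.32 with SCR AMO and 1.30 and 1.28 with L1 AMO, so the L1 AMO values lay above the SCR AMO values in the first band and below them in the second. These differences were not tested against each other.

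Chromosome 8 had a whole-chromosome coverage per bin of 1.40 and 1.40 relative to the median autosome with SCR AMO and 1.33 and 1.33 with L1 AMO, and chromosome 11 had 1.21 and 1.21 with SCR AMO and 1.14 and 1.11 with L1 AMO. These are also the chromosomes with the highest windows in contacts with other windows, and the part of coverage in that order was not tested.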
